A study of Mus musculus with 6 samples.

Results

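Genes of the major histocompatibility complex (MHC) and of antigen presentation were examined in RNA from sorted ileal tuft cells. The members were every gene with a symbol starting with H2-, which gave 44 genes, and 12 named genes of the same pathways (B2m, Cd74, Ciita, Nlrc5, Tap1, Tap2, Tapbp, Psmb8, Psmb9, Psmb10, Cd1d1 and Erap1). They made 56 of the 23420 genes in the table. The rule itself names genes and uses no measured value.

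The 6 libraries formed 1 group, labelled as replicates 1 to 6 from separate mice of the C57BL/6J background that carried the Gfi1b-eGFP reporter (Gfi1b-eGFP/+), aged 6 to 12 wk. Ileal epithelial cells were sorted as positive for GFP and EpCam and negative for CD45 and propidium iodide, so the cells were chosen by activity of the Gfi1b locus, 1 copy of which carries the reporter. There was no other condition or cell type in the table, and levels are therefore compared between genes and between libraries. Values were TPM, the transcript abundance unit of RSEM, which divides reads by transcript length and scales every library to the same total, so that sequencing depth was unknown and no detection limit could be set for a gene listed at 0. Comparisons between genes assume reads along the whole transcript, as the SMART-Seq2 method gives, while the labels also name 3' preparations.

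Tuft cell markers were abundant in every library. Of 13 tuft markers, 12 were found and all 12 were above 0 in each library (Sh2d6 was not found), and their summed level lay between 5805 and 9782 TPM. Trpm5, the taste pathway channel, stood at 1141 ± 211 TPM (SD, n = 6) and Dclk1, a kinase widely used to mark tuft cells, at 628 ± 130.1 TPM. Transcripts of other ileal cells were present as well: the 10 enterocyte markers summed to between 8179.7 and 16509.8 TPM, led by Fabp1, and the 7 Paneth cell markers to between 4089 and 26976 TPM, led by Defa24. The 7 goblet cell markers summed to between 1053 and 5118 TPM, led by Zg16. Enteroendocrine markers (8 of 8 found) reached at most 127 TPM in sum and stem cell markers (5 of 5 found) at most 788 TPM. In such bulk samples, fewer cells of a type and less RNA per cell cannot be told apart. All p-values below rest on these 6 samples. The Mann-Whitney U test ignores that both genes of a pair were measured in the same libraries, and the sign-flip test keeps that pairing.

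MHC class I molecules pair a heavy chain with beta-2 microglobulin and show peptides from inside the cell to CD8 T cells, after the proteasome cuts proteins and the TAP transporter carries the peptides into the endoplasmic reticulum. MHC class II molecules pair an alpha and a beta chain, are guided by the invariant chain Cd74, are loaded with the help of H2-DM, and show peptides from endosomes to CD4 T cells. Class I is made by nearly all nucleated cells, whereas class II is best known from B cells, dendritic cells and macrophages but is also made by small intestinal epithelium, where interferon gamma induces it through Ciita.

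Members were above 0 and abundant more often than genes of the whole table. Of the 56 members, 34 (60.7%) were above 0 in every library, against 47.2% of all genes. A mean of at least 1 TPM was reached by 40 members (71.4%, against 51.4% of all genes), a mean of at least 10 TPM by 29 (51.8%, against 29.8%) and a mean of at least 100 TPM by 11 (19.6%, against 4.5%). The median of the mean levels was 16.4 TPM for the members and 1.24 TPM for all genes. Together the members took between 0.722% and 1.18% of all TPM in a library. Another 8 members were above 0 in some libraries, and 14 were listed at 0 in all 6: H2-DMb2, H2-Ea-ps, H2-Oa, H2-Ob and 10 of the 12 H2-M genes (H2-M1, H2-M5, H2-M9, H2-M10.1 to H2-M10.6 and H2-M11). A value of 0 in this table can be a failed estimate, since some ribosomal protein genes were also listed at 0.

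**Figure D1:**
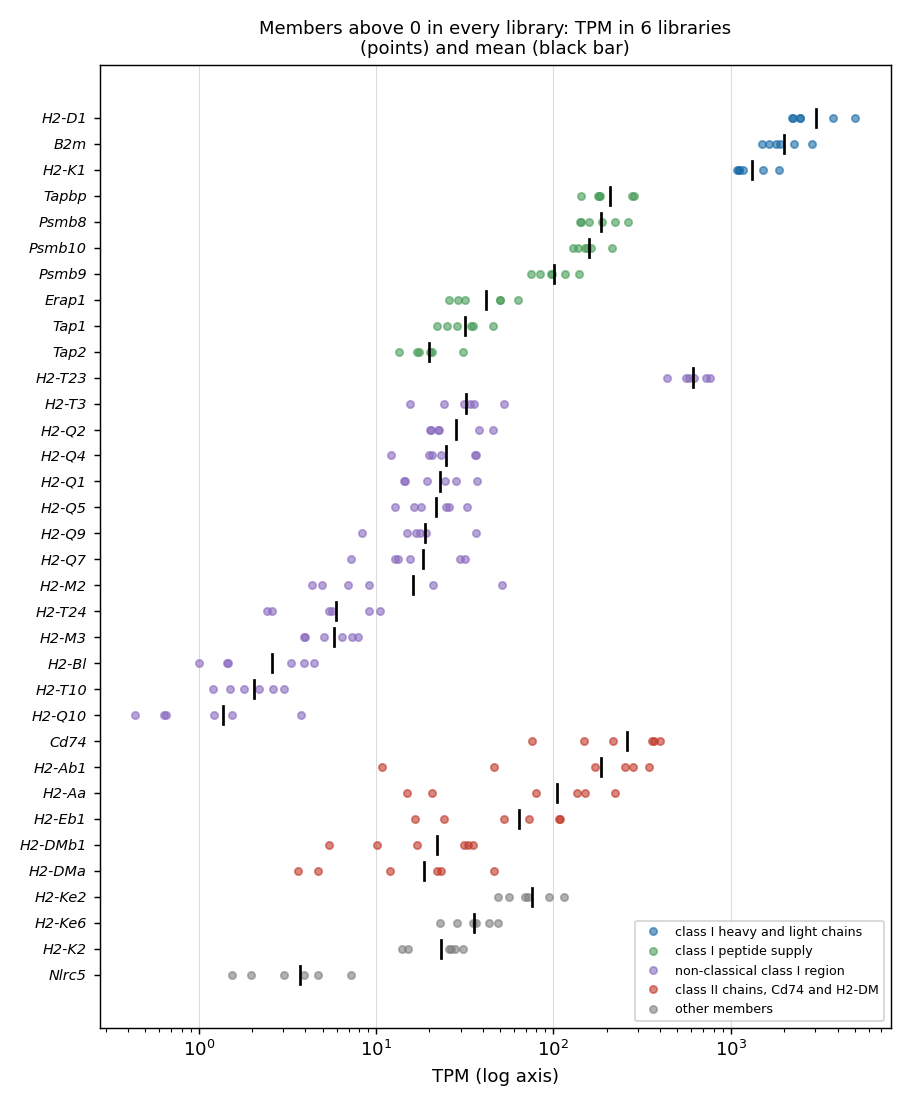
TPM (log axis) of the 34 members above 0 in every library, grouped by role; each point is 1 of the 6 libraries and the black bar is the mean. H2-D1, B2m and H2-K1 lie above 1000 TPM in every library, and H2-Ab1 spreads from 10.8 to 345 TPM.

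The class I chains were the most abundant members. H2-D1, a classical heavy chain, was measured at 4989.5, 3780.3, 2458, 2224, 2246 and 2448 TPM in replicates 1 to 6. B2m, the light chain, was measured at 2879, 2264, 1903, 1650.3, 1501 and 1797 TPM in the same order. H2-K1, the other classical heavy chain of these mice, was measured at 1878, 1512, 1078, 1112, 1111 and 1168 TPM. All 3 genes were highest in replicate 1 and next highest in replicate 2, also after rescaling the libraries by the median of ratios or without Rn45s and Gm20594, a pair of very abundant RNAs. By mean TPM, H2-D1 (3024 ± 1125 TPM) ranked 18 among 23420 genes, B2m (1999 ± 503 TPM) ranked 32 and H2-K1 (1309.9 ± 321 TPM) ranked 62.

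H2-K1 was lower than H2-D1 in all 6 libraries, with a mean difference of -1.17 ± 0.17 on the log2(TPM + 1) scale (SD, n = 6). The values of the 2 genes did not overlap (adjusted p = 0.00794, exact two-sided Mann-Whitney U test, adjusted by Benjamini-Hochberg over 11 gene pairs). The ratio of H2-D1 to H2-K1 TPM lay between 2.00 and 2.66. B2m was higher than H2-K1 in all 6 libraries by 0.61 ± 0.12 on the log2(TPM + 1) scale, with overlapping ranges (adjusted p = 0.0476, exact Mann-Whitney U test). B2m TPM was 0.419 to 0.538 times the sum of H2-K1 and H2-D1. The heavy chains resemble each other in sequence: 31.7% of the 25-base words of H2-K1 transcripts and 35.6% of those of H2-D1 also occur in transcripts of other genes, against 0% for B2m, so RSEM had to divide shared reads and the values of the class I heavy chains are uncertain. H2-L, a classical heavy chain gene that the b haplotype of C57BL/6 mice lacks, had values of 0.64, 0, 1.49, 1.70, 1.91 and 0 TPM in replicates 1 to 6.

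Genes that supply peptides to class I were present in every library at levels between those of the chains and the median gene. Tapbp, which encodes tapasin, the bridge between class I and TAP, was measured at 286, 276, 184, 182, 178 and 144 TPM in replicates 1 to 6. Its values, like those of the class I chains, were highest in replicates 1 and 2. Tap1 was measured at 25.1, 35.1, 28.7, 22.0, 34.5 and 45.9 TPM. Tap2, its partner in the peptide transporter, was measured at 30.9, 20.2, 17.5, 17.04, 13.5 and 20.7 TPM. Tap1 was the higher of the pair in 5 of 6 libraries, replicate 1 being the exception, and their ranges overlapped. The mean difference was 0.65 ± 0.57 on the log2(TPM + 1) scale (adjusted p = 0.0333, exact Mann-Whitney U test), and with libraries kept as pairs the exact sign-flip test gave an adjusted p of 0.0625. Erap1, which trims peptides in the endoplasmic reticulum, ranged from 25.9 to 62.8 TPM.

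The interferon-inducible proteasome subunits were compared with the constitutive subunits whose place they take. Psmb8 was measured at 144, 141, 262, 158, 189 and 223 TPM in replicates 1 to 6. Psmb9 was measured at 83.6, 98.6, 139, 74.4, 96.4 and 116 TPM, and Psmb10 at 150.3, 164, 213, 138, 129.6 and 155 TPM. All 3 were highest in replicate 3 and none spread by more than 1.86-fold between its lowest and highest library.

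Psmb9 was lower than its partner Psmb6 in all 6 libraries, by a mean log2(TPM + 1) difference of -1.31 ± 0.28, with no overlap between the genes (adjusted p = 0.00794, exact Mann-Whitney U test). Psmb10, in contrast, was higher than Psmb7 in all 6 libraries, by 0.58 ± 0.16 on that scale, with overlapping ranges (adjusted p = 0.0238, exact Mann-Whitney U test). Psmb8 was below Psmb5 in 6 of 6 libraries, by -0.46 ± 0.34 on that scale, but did not pass the threshold (adjusted p = 0.0893, exact Mann-Whitney U test). With libraries kept as pairs, the exact sign-flip test for Psmb8 and Psmb5 gave an adjusted p of 0.0430. The mean difference of this pair was -0.26 without replicates 1 and 2, a choice made after the data were seen. Summed TPM of the inducible subunits was 0.605 to 0.838 times that of the constitutive ones. Psmb9 and Tap1 are divergent neighbours, with RefSeq starts 226 bases apart and annotated gene bodies that share 212 bases, and without strand information reads from the shared stretch cannot be told apart.

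The other genes of class I loading were all abundant. All 10 of them (Calr, Canx, Pdia3, Tapbpl, Erp29, Psme1, Psme2, Psmb5, Psmb6 and Psmb7) were above 0 in every library and 9 averaged at least 100 TPM, beside 4.5% of all genes. Psme2, a subunit of the proteasome activator that interferon gamma induces, had the highest mean at 365 ± 49.3 TPM, followed by the chaperone Calr at 309 ± 55.0 TPM and by Psme1, the partner of Psme2, at 296 ± 50.8 TPM.

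Of the non-classical class I genes, H2-T23 stood far above the rest. H2-T23, which encodes Qa-1, a ligand of the NKG2A receptor, was measured at 562, 621, 436, 722, 583 and 760.4 TPM in replicates 1 to 6. H2-T3, which encodes the thymus leukaemia antigen known from intestinal epithelium, was measured at 31.2, 33.8, 52.4, 24.2, 15.5 and 35.9 TPM. H2-Q2 was measured at 20.3, 20.1, 45.5, 38.1, 22.2 and 22.8 TPM. The order of the libraries differed between these 3 genes, with the lowest value in replicate 3 for H2-T23, in replicate 5 for H2-T3 and in replicate 2 for H2-Q2. The SD of H2-T23 on the log2(TPM + 1) scale was 0.29, larger than that of 16.6% of the 6986 genes averaging at least 10 TPM. Of the 25-base words of H2-T23 transcripts, 29.2% also occur in other genes, H2-K1 among them, so its values are uncertain as well.

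The 9 H2-Q genes summed to between 105 and 178 TPM in a library, and the 6 H2-T genes to between 529.9 and 844 TPM. H2-Q1 (23.1 ± 8.79 TPM), H2-Q4 (24.7 ± 9.67 TPM) and H2-Q5 (21.7 ± 7.26 TPM) had means close to each other, as did H2-Q7 (18.4 ± 9.94 TPM) and H2-Q9 (18.9 ± 9.48 TPM), which encode the Qa-2 antigen. Lower means were found for H2-T24 (5.96 ± 3.32 TPM), H2-M3 (5.78 ± 1.72 TPM), a presenter of formylated peptides, H2-Bl (2.60 ± 1.48 TPM), H2-T10 (2.06 ± 0.69 TPM) and H2-Q10 (1.37 ± 1.24 TPM). H2-M2 was measured at 51.3 TPM in replicate 1, 20.8 TPM in replicate 2 and 4.33 to 9.10 TPM in the others. Its mean of 16.2 TPM fell to 9.23 TPM without replicate 1, and the mean of H2-Q10 fell to 0.898 TPM without it.

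Several members of these families had a 0 in some library, and their values are given by library. H2-Q6 had values of 10.2, 1.02, 0, 1.41, 16.5 and 5.09 TPM in replicates 1 to 6. H2-Q8 was above 0 only in replicates 2 and 3, at 6.69 and 8.37 TPM. H2-T22, a ligand of some gamma delta T cell receptors, was listed at 0 in replicate 1 and at 8.48 to 15.5 TPM in the others. H2-T9 was listed at 0 in replicate 5 and at 10.1 to 24.8 TPM in the others. Near-identical copies limit these values, as between 30.8% and 65.3% of the 25-base words of the H2-Q transcripts in the annotation, 56.8% of those of H2-T10 and 57.4% of those of H2-T22 also occur in other genes.

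Some symbols with the H2- prefix do not name antigen presenting molecules. H2-Ke2, the prefoldin subunit now called Pfdn6, was measured at 94.1, 71.6, 115, 49.0, 69.5 and 56.3 TPM in replicates 1 to 6. H2-Ke6, the steroid dehydrogenase also called Hsd17b8, was measured at 35.4, 48.5, 43.3, 36.5, 22.9 and 28.6 TPM, and 78.2% of its 25-base words also occur in the annotated gene Gm20427. The pseudogene H2-K2 had a mean of 23.3 ± 7.02 TPM. Cd1d1, which presents lipids to natural killer T cells, had values of 4.70, 0, 7.01, 4.75, 0 and 0 TPM.

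Class II genes were also present in all 6 libraries, at levels that differed widely between them. H2-Ab1, the beta chain of I-A, was measured at 46.3, 10.8, 254, 172, 282 and 345 TPM in replicates 1 to 6. H2-Aa, the alpha chain of I-A, was measured at 20.8, 14.95, 137, 80.0, 151 and 222 TPM. H2-Eb1, the beta chain of I-E, was measured at 24.3, 16.6, 107, 52.4, 109.5 and 72.4 TPM. The lowest value of each of these 3 genes was in replicate 2, the next in replicate 1 and the next in replicate 4, and H2-Aa and H2-Ab1 put all 6 libraries in the same order.

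The partners of the class II chains followed the same order at the low end. Cd74 was measured at 149, 75.3, 362, 216, 400.3 and 368 TPM in replicates 1 to 6. H2-DMa, a chain of the peptide exchange factor H2-DM, was measured at 4.70, 3.61, 46.4, 11.95, 23.3 and 22.1 TPM. H2-DMb1, the other chain of H2-DM, was measured at 10.2, 5.44, 33.0, 16.95, 35.4 and 31.2 TPM. Replicates 2, 1 and 4, in that order, were again the lowest for all 3 genes. For these 6 class II genes the order of the 3 lowest libraries was the same after rescaling by the median of ratios and after rescaling without Rn45s and Gm20594. Of the 25-base words of H2-DMb1 transcripts, 35.1% also occur in H2-DMb2, which limits the values of both.

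Ciita, the class II transactivator, had values of 0, 0.08, 3.34, 1.82, 1.84 and 1.68 TPM in replicates 1 to 6. Its 2 lowest libraries were the same replicates 1 and 2 as for the class II chains, in the reverse order. Nlrc5, the class I transactivator, was measured at 1.55, 3.04, 3.91, 4.73, 1.97 and 7.18 TPM. Nlrc5 was above Ciita in 6 of 6 libraries, by a mean log2(TPM + 1) difference of 1.02 ± 0.76, but did not pass the threshold (adjusted p = 0.0893, exact Mann-Whitney U test). With libraries kept as pairs, the exact sign-flip test gave an adjusted p of 0.0430, and with a pseudocount of 0.01 the mean difference was 2.69, so its size rests on the pseudocount.

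Class II members, and some members of the class I region, were among the most variable of the abundant genes. The SD of H2-Ab1 on the log2(TPM + 1) scale was 1.91, larger than that of 99.4% of the 6986 genes averaging at least 10 TPM. The same percentile was 98.8 for H2-Aa, 97.8 for H2-DMa, 96.0 for H2-Eb1, 94.8 for H2-DMb1 and 93.5 for Cd74. It was 99.3 for H2-T9, which had a 0 in 1 library, and 97.6 for H2-M2, which was highest in replicate 1. For the classical class I chains and B2m it was lower, at 57.2 for H2-D1, 28.0 for B2m and 24.3 for H2-K1. The median SD was 0.49 over the 29 members averaging at least 10 TPM and 0.44 over all 6986 genes. H2-Ab1 spread 31.9-fold between its lowest and highest library, H2-Aa 14.9-fold and Cd74 5.32-fold, against 1.74-fold for H2-K1.

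**Figure D2:**
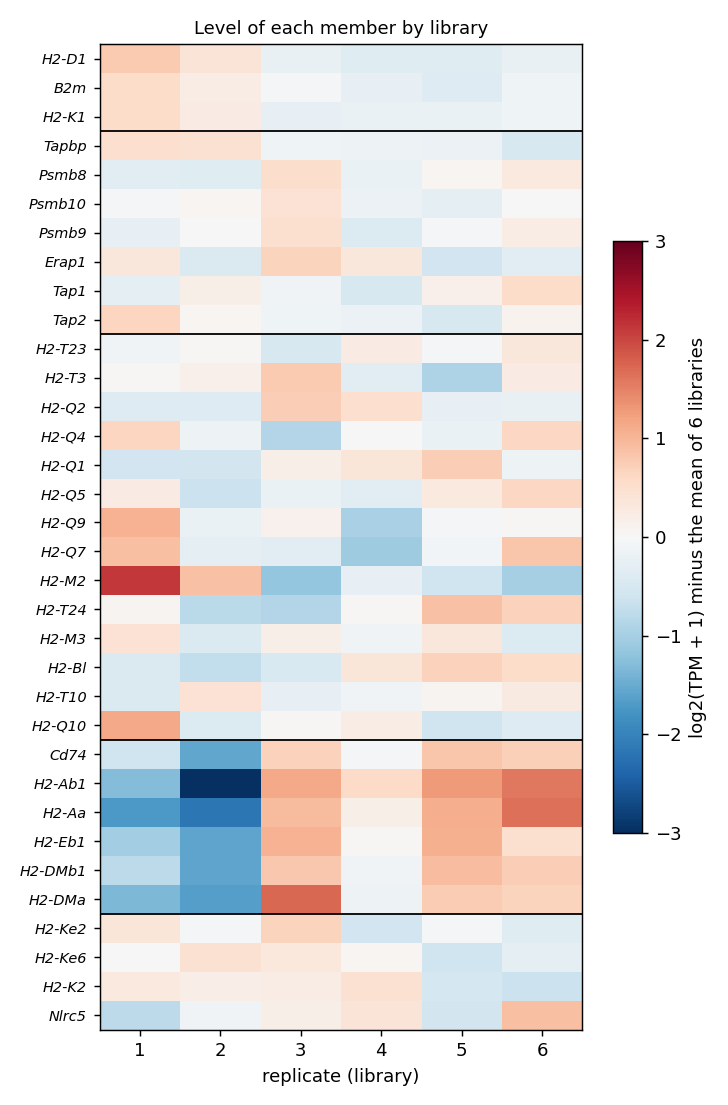
Level of each of the 34 members in each library (columns, replicates 1 to 6), as log2(TPM + 1) minus the mean of the gene over the 6 libraries; rows follow the groups of roles and the colours end at -3 and 3. The class II block is blue in replicates 1 and 2, and H2-Ab1 in replicate 2, at -3.30, lies past the end of the colours.

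Comparisons among the class II chains did not pass the threshold. H2-Aa was below H2-Ab1 in 5 of 6 libraries, by -0.70 ± 0.58 on the log2(TPM + 1) scale (adjusted p = 0.31, exact Mann-Whitney U test), replicate 2 being the exception. H2-Eb1 was below H2-Ab1 in 5 of 6 libraries, by -1.14 ± 0.96 (adjusted p = 0.294, exact Mann-Whitney U test), with the same exception. With libraries kept as pairs, the exact sign-flip test gave an adjusted p of 0.0625 for each of these pairs. Cd74 was above H2-Ab1 in 6 of 6 libraries, by 0.96 ± 1.01 (adjusted p = 0.31, exact Mann-Whitney U test), and the exact sign-flip test with libraries kept as pairs gave an adjusted p of 0.0430. The mean difference between Cd74 and H2-Ab1 was 0.62 without replicate 2 and 0.36 without replicates 1 and 2. H2-Ea-ps, the I-E alpha chain gene that a deletion silences in C57BL/6 mice, was listed at 0 in all 6 libraries, and H2-Eb2 at no more than 0.06 TPM.

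The classical class I chains exceeded the class II chains in every library. H2-K1 was above H2-Ab1 in 6 of 6 libraries, by a mean log2(TPM + 1) difference of 3.47 ± 2.1715, with no overlap between the genes (adjusted p = 0.00794, exact Mann-Whitney U test). Without replicates 1 and 2, a choice made after the data were seen, the mean difference was 2.12. The sum of H2-K1 and H2-D1 was 6867, 5292, 3537, 3336, 3357 and 3617 TPM in replicates 1 to 6. The sum of H2-Aa, H2-Ab1 and H2-Eb1 was 91.4, 42.4, 498, 305, 542 and 639 TPM. The ratio of these sums was 75.1 in replicate 1 and 125 in replicate 2, and between 5.66 and 10.9 in replicates 3 to 6, so the 2 libraries with the highest class I sums had the lowest class II sums.

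Markers of other cells also differed between the libraries that stood apart in class II. The summed tuft markers, highest in replicates 1 and 2, were 9782, 9134, 5805, 6869, 6053 and 5966 TPM in replicates 1 to 6. The summed goblet cell markers, lowest in replicates 1 and 2, were 1155, 1053, 2495, 2324, 2986 and 5118 TPM. The summed enterocyte markers, also highest in replicates 1 and 2, were 16509.8, 12853, 8179.7, 11945, 8203 and 9887 TPM. Other sums did not set replicates 1 and 2 apart from replicate 3. The summed Paneth cell markers were 7529, 4089, 4455, 26976, 16356 and 8724 TPM. The summed stem cell markers were 715, 788, 773, 595, 455 and 317 TPM. The part of these cell types in the class II values was not tested.

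Markers of leukocytes, which the sort against CD45 was set to remove, were not absent, and they differed by lineage. Of 6 B cell markers 5 were found, and their sum was 2.32, 0.53, 2.42, 1.99, 1.28 and 0 TPM in replicates 1 to 6. The defining B cell gene Ms4a1 was listed at 0 in all 6 libraries, and the B cell marker with the highest mean was Pax5, at no more than 2.32 TPM, with Cd79b at 2.42 TPM in replicate 3 and at 0 in the others. Of 10 myeloid markers 9 were found, with sums of 23.8, 29.5, 47.6, 24.7, 19.2 and 29.6 TPM, led by Itgam. Flt3 was listed at 0 in all libraries, and Itgax reached at most 1.82 TPM. Of 8 T cell markers 7 were found, with sums of 24.8, 63.1, 38.5, 60.8, 191 and 216 TPM, led by Gzma, which reached 141 TPM in replicate 5 and 158 TPM in replicate 6. The whole leukocyte list (22 of 25 found) summed to between 173 and 319.7 TPM and was led by mean by Ptprc, which encodes CD45 itself, at 171, 156, 84.5, 110.5, 77.4 and 74.2 TPM. Tuft cells can also express Ptprc and some other genes of the list, so the whole sum is not a measure of leukocytes alone. Ptprc was highest in replicates 1 and 2, where class II was lowest and the summed tuft markers were highest. The T cell sum was highest in replicates 5 and 6, where Gzma lay above Ptprc. The part of leukocyte RNA in the class II values was not tested.

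The libraries also differed in 2 very abundant RNAs. Between 13044 and 13308 genes were above 0 in a library. The ribosomal precursor Rn45s took between 23.1% and 32.6% of TPM. Gm20594 lay between 15588 and 21283 TPM in replicates 1 to 3 and between 51804 and 56441 TPM in replicates 4 to 6. The mean differences of all 11 pairs kept their sign within replicates 1 to 3 and within replicates 4 to 6. The sizes of some differed by more than 1.5-fold between these sets. Cd74 minus H2-Ab1 was 1.62 and then 0.31, and H2-K1 minus H2-Ab1 was 4.80 and then 2.14. H2-Eb1 minus H2-Ab1 was -0.52 and then -1.76, and H2-Aa minus H2-Ab1 was -0.53 and then -0.87. Tap1 minus Tap2 was 0.39 and then 0.92, and Psmb8 minus Psmb5 was -0.68 and then -0.25. The difference of H2-K1 minus H2-Ab1 on the log2(TPM + 1) scale was 5.31, 7.002, 2.08, 2.68, 1.98 and 1.76 in replicates 1 to 6, so that replicate 3 lay with replicates 4 to 6 and not with replicates 1 and 2. Rescaling without both RNAs changed no call among the 11 pairs and moved 21 of 40 member means by more than 1 SD.

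Most other genes of the class II pathway were above 0. All 9 listed genes of class II processing were found, March1 and March8 under these older symbols, and 7 were above 0 in every library, while Ctse was listed at 0 in all and March1 reached at most 0.06 TPM. The most abundant were the protease Ctsd (221 ± 60.9 TPM), the thiol reductase Ifi30 (119 ± 29.1 TPM) and the protease Ctsb (109 ± 25.7 TPM). Ctss, the protease that finishes the cleavage of Cd74, ranged from 15.2 to 55.0 TPM. H2-Oa and H2-Ob, the chains of the H2-DM inhibitor H2-DO, were both listed at 0 in every library.

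Of 9 genes of costimulation and inhibition, 8 were found, and 3 of them (Cd274, Tnfsf9 and Lgals9) were above 0 in every library. Cd86, Cd40 and Pdcd1lg2 were listed at 0 in all 6 libraries. Cd80 and Icosl were listed at 0 in some libraries and reached at most 2.12 and 3.35 TPM, and Cd274, which encodes PD-L1, ranged from 0.41 to 8.15 TPM. Lgals9, which encodes galectin-9, was the only one of them averaging at least 10 TPM, at 371 ± 70.3 TPM. Of the 12 MHC-like genes, Fcgrt, the neonatal Fc receptor, was the most abundant at 17.2 ± 6.30 TPM, and 5 (Mr1, Azgp1, Raet1d, H60b and H60c) were listed at 0 in all libraries.

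All 15 regulators of MHC transcription that were listed were above 0 in every library. Irf1, an interferon-induced factor that drives class I genes, was the most abundant at 143 ± 12.3 TPM, followed by the interferon gamma receptor genes Ifngr2 (104 ± 19.0 TPM) and Ifngr1 (83.5 ± 23.4 TPM). The subunits of the RFX factor, which binds class II promoters together with Ciita, were lower, with Rfxank at 13.3 ± 4.75 TPM and Rfxap at 2.48 ± 1.94 TPM. Rfx5 was measured at 7.35, 5.85, 3.17, 2.13, 0.55 and 0.05 TPM in replicates 1 to 6, highest in the replicates where the class II chains and Ciita were lowest. Listed regulators differed in this, also within RFX. Rfxank was highest in replicate 3, at 17.9 TPM, and Rfxap in replicate 6, at 5.55 TPM. Nfya, at 8.77, 8.75, 6.57, 4.91, 4.75 and 2.49 TPM, was like Rfx5 highest in replicates 1 and 2. Creb1, at 4.86, 3.31, 11.46, 6.75, 9.88 and 8.17 TPM, was lowest in them.

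Most members also share a position in the genome. Of 52 members found in the GENCODE M21 annotation of GRCm38, 45 lie on chromosome 17 between positions 33915899 and 37483552, which includes the neighbours Psmb9, Tap1, Psmb8 and Tap2. B2m lies on chromosome 2, apart from the heavy chains, and Nlrc5 and Psmb10 lie on chromosome 8. Of the 52, 47 are annotated as protein coding and 5 as pseudogenes. H2-L, H2-Q8, H2-Q9 and H2-T9 were not found there.

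Promoters were read for short motifs because the class II genes shared their lowest libraries. The RefSeq promoter table (GRCm38.p6, 250 bases before to 50 after each start) held 43 promoters of 39 members. The motifs were chosen after the promoters had been read and were searched on both strands. TGATTGG, the Y box core that NF-Y is known to bind, occurred in 26 of the 43 member promoters and in 7.82% of all 32851 promoters. Of those 26 promoters, 12 belong to members listed at 0 in every library, which have 14 promoters in all. AACNGATG, part of the X box that RFX is known to bind, occurred in 5 member promoters and in 2.32% of all. GGGGATTCC, a kappa B motif, occurred in 5 member promoters and in 0.25% of all. TTTCACTT, part of the interferon response element of class I genes, occurred in 11 member promoters and in 1.60% of all. None of these motifs overlaps another in the stretches shown here. Many members are copies of each other, so their promoters are not independent, and a match is a description and not a site.

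The 160 bases before the start are shown for a class I gene and for 2 class II chains, 5′ to 3′ on the strand of the gene, with matches in capitals. The H2-K1 stretch (chr17:34000348-34000507, minus strand) overlaps no annotated exon. It holds GGGGATTCC starting 111 bases and TTTCACTT starting 90 bases before the start. TGATTGG was also found for H2-K1 in the longer stretch searched, outside the bases shown, and for H2-D1, Psmb9 and Tap1. The H2-Aa stretch (chr17:34287824-34287983, minus strand) overlaps no annotated exon and holds TGATTGG 50 bases before the start. The H2-Eb1 stretch (chr17:34305707-34305866, plus strand) overlaps an exon of the antisense gene Gm20513 and holds TGATTGG 61 bases and AACNGATG 89 bases before the start. H2-DMb1 holds the same motifs as H2-Eb1 in its 160 bases, which overlap its own exon and are not shown, and neither of the 2 H2-DMa promoters matched any of the 4 motifs. The promoters of H2-Ab1, Cd74 and Ciita were not in the table.
H2-K1: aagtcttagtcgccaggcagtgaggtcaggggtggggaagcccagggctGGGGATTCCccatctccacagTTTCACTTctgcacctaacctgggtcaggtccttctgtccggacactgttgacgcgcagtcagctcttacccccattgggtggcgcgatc
H2-Aa: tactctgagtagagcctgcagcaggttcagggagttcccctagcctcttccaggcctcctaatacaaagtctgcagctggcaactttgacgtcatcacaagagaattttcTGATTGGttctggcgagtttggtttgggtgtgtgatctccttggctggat
H2-Eb1: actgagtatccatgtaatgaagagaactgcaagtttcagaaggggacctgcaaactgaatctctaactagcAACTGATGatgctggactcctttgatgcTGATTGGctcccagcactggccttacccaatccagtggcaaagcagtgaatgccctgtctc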

How the data were processed

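RNA of sorted ileal tuft cells was sequenced from 6 libraries, 1 for each replicate. The study's methods describe full-length SMART-Seq2 libraries, whereas the labels name 3 preparations for every sample, also a poly(A) 3' method and a 10X Chromium one. Were a library made by a 3' method, dividing by transcript length would shift the comparisons between genes. The authors aligned paired-end reads to the UCSC mm10 transcriptome with Bowtie, dropping reads with more alignments than a set limit, and deposited TPM values computed by RSEM. Any filter they applied is not given in the sources used here. TPM keeps no depth, so no counting error was computed.

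The deposited TPM values were used as they stand. Means and SDs are of TPM. Pairs of genes were compared on log2(TPM + 1), with the mean and SD of the difference within libraries, by an exact two-sided Mann-Whitney U test over all 924 assignments, with Benjamini-Hochberg adjustment over 11 pairs and a threshold of 0.05. The smallest p it can give is 0.00216. This test treats the 2 genes of a library as separate samples; an exact sign-flip test over 64 assignments, whose smallest p is 0.0313, keeps them paired. All libraries share 1 group, so no pairing between groups arose. The work was done in Python 3.11.15 with scipy 1.17.1, pandas 2.3.3 and numpy 2.4.6, and plots with matplotlib 3.10.9. The functions were tested on simulated data.

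The members and lists were chosen with earlier results of these data known. Every member was to be accounted for, and those above 0 in every library or with a mean of at least 1 TPM were to be named with values. Values in each library were to be given for the classical class I and class II genes, B2m, Tap1, Tap2, Tapbp, Psmb8, Psmb9, Psmb10, Nlrc5, Ciita, Cd74 and the 5 most abundant other H2- genes. Other genes came from listed markers and pathway lists, and the values of some listed genes are not reported here.

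A further 7 correlations across libraries were planned (H2-Ab1 with Cd74, H2-Aa and the tuft, enterocyte and leukocyte sums, and H2-K1 with B2m and the tuft sum). They were computed and then left out, because replicates 1 and 2 stand apart from the others in H2-Ab1, H2-K1 and the tuft sum and a pooled coefficient would rest on that gap. This was decided after the coefficients had been seen, and 5 of the 7 had an adjusted Pearson p under the threshold, 1 of them also by Spearman.

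Sequence sharing was measured as the share of 25-base words of the GENCODE M21 transcripts of a member that occur in transcripts of another gene. Promoters came from RefSeq (GRCm38.p6). Alternatives were pseudocounts of 0.1 and 0.01, values under 0.1 TPM set to 0, medians, both rescalings, subsets of libraries and the sign-flip test.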

Additional observations from a re-analysis of the deposited data

Results flagged for a closer look

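For each of 86 measures, the gap between the most extreme library and its nearest neighbour was divided by the range of the 6 libraries, and 7 measures lay above Dixon's critical value for 6 samples. Chance passes about 1 in 20, or 4.3 of 86, so the number of such measures is no finding. The calls depend on the scale: on log2(value + 1), none of the 6 that were taken on a linear scale passed, while H2-T22 (0.802) and H2-T9 (0.741), each with a 0 in 1 library, did. H2-M2 had a value of 0.649, with 51.3 TPM in replicate 1 against 20.8 TPM in the next library. H2-Q10 had a value of 0.668, with 3.75 TPM in replicate 1 against 1.54 TPM. The sum of myeloid markers had a value of 0.635, with 47.6 TPM in replicate 3 against 29.6 TPM. The sum of class I loading genes had a value of 0.646, with 2869.7 TPM in replicate 3 against 2317 TPM. The ratio of H2-K1 to H2-Ab1 TPM had a value of 0.728, with 139.97 in replicate 2 against 40.5, and its mean of 33.1 was 11.7 without that library. The ratio of Cd74 to H2-Ab1 TPM had a value of 0.637, with 6.97 in replicate 2 against 3.21. The log2(TPM + 1) difference of H2-Aa minus H2-Ab1 had a value of 0.684, with 0.43 in replicate 2 against -0.63.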

How the results depend on the processing

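The mean differences of all 11 pairs kept their sign under every alternative that was run. The exact sign-flip test, in which libraries form the pairs (a replicate block), changed 4 calls and no other: Tap1 minus Tap2 (0.65) no longer passed, with an adjusted p of 0.0625, while Psmb8 minus Psmb5 (-0.46), Nlrc5 minus Ciita (1.02) and Cd74 minus H2-Ab1 (0.96) passed, each with an adjusted p of 0.0430. These changes follow from the construction of the test, which uses the difference within each library. No call changed with a pseudocount of 0.1 or 0.01, with values under 0.1 TPM set to 0, or with either rescaling. Leaving out libraries gave values with no test. Without replicates 1 and 2, added after the data were seen, H2-K1 minus H2-Ab1 was 2.12, Cd74 minus H2-Ab1 0.36 and Psmb8 minus Psmb5 -0.26. Counts of members past each level stayed within 1.5 times, the count at 100 TPM or more lying between 9 and 12 over all settings. Of 40 member means, 21 moved by more than 1 SD after rescaling without Rn45s and Gm20594, which raises all other genes, and 0 under the other settings. Means moved by more than 1.5-fold for H2-M2 and H2-Q10 without replicate 1, for H2-Q8 without replicate 3, for H2-Q6 without replicate 5, for H2-M2 without replicates 1 and 2, for H2-M2, H2-Q6 and H2-Q8 with medians, and for H2-Aa, H2-Ab1, H2-Bl, H2-Q6 and H2-T24 after rescaling without Rn45s and Gm20594. The alternatives planned for the 7 correlations have no values, because the correlations were left out after they had been computed. Depth is unknown, so how far low values are limited by it could not be measured.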
